A study of Mus musculus with 9 samples.

Results

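The genes described here are the replication-type histone genes of the mouse, the multicopy genes that supply histone protein while DNA is copied. They were chosen by name alone: every row of the expression table whose gene name began with Hist1h, Hist2h, Hist3h or Hist4h, with names ending in -ps left out. The rule found 9 of the 55487 genes in the table, namely 4 of class H2A, 3 of H2B and 2 of H4, and none of H1 or H3. Most of the family was listed under newer symbols, such as H1f2 for Hist1h1c. The same name rule was therefore also applied to the GENCODE M21 names of the Ensembl identifiers in the table. This added 60 genes and gave a family of 69, with 6 genes of H1, 20 of H2A, 18 of H2B, 12 of H3 and 13 of H4, of which 67 were annotated as protein-coding. The 9 genes are described first, and sums over a class cover the 69 genes unless the 9 are named.

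RNA sequencing was done on 9 libraries of splenic CD4+ T cells from wild type C57BL/6 mice, isolated by negative selection. In 3 libraries the cells were kept in medium without antibody, for a time that the labels do not give. In 3 libraries the cells were stimulated for 24 h with antibodies (Abs) to CD3, at 3 µg/ml, and to CD28, at 2 µg/ml. In the other 3 libraries the same Abs were given for 24 h with TRAIL (10 µg/ml), a ligand of the TNF family. The mice of all groups were wild type, and the comparisons address how stimulation, and TRAIL during stimulation, changed the transcripts of the cells. Nothing in the labels says whether the 3 libraries of a group came from separate animals, so the p-values measure the spread between these libraries, which may be technical.

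Histones H2A, H2B, H3 and H4 form the protein core around which DNA is wound, and H1 binds the linker DNA between cores. Their replication-type genes lie in clusters and are transcribed mainly in S phase, and most of their mRNAs end in a short conserved stem-loop instead of a poly(A) tail. The stem-loop is bound by the protein Slbp, and a few of the genes are also known to give polyadenylated transcripts. Resting T cells lie outside the cell cycle and enter S phase after stimulation. The library kit was an mRNA kit, and how mRNA was selected was not described in the sources used here. What that selection did to the levels of these transcripts was not tested.

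All 9 genes belonged to the Hist1 group on chromosome 13. In the coordinates of the table, which for all 69 genes were the same as in GENCODE M21 (GRCm38), 8 of them lay within the histone cluster. Hist1h4m, an H4 gene, was at chr13:21811746-21812147 on the plus strand, and Hist1h4n at chr13:21831767-21832196 on the minus strand. The H2A genes Hist1h2an (chr13:21786826-21787218), Hist1h2ao (chr13:21810465-21810944) and Hist1h2ap (chr13:21833026-21833507) each had 1 exon. The H2B genes Hist1h2bp, Hist1h2bq and Hist1h2br had transcripts of up to 2, 3 and 3 exons. Hist1h2al lay apart from the others, at chr13:51202727-51203065, and was annotated as a processed pseudogene, whereas the other 8 were protein-coding.

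Several of the genes had identical coding sequences. Hist1h4m and Hist1h4n had the same coding sequence over 312 bases, as had Hist1h2ao and Hist1h2ap over 393 bases and Hist1h2bq and Hist1h2br over 405 bases. Reads from such pairs cannot be assigned to one gene by their coding part, so the sum of a pair is given beside its members. Other genes of the family differ at only a few coding bases, and their reads may be divided between them in the same way. The annotation also held a gene on the opposite strand over each of Hist1h2al, Hist1h2an, Hist1h2ao and Hist1h2ap, and the strand setting of the counting was not given in the sources used here.

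The consensus letters of the histone stem-loop were present in transcript models of 33 of the 69 genes (47.8%) and of 5 of the 9. Counted by transcript and not by gene, they were in 46 (0.0324%) of all 141767 transcripts in GENCODE M21, those of the family included. The sense strand alone was searched. In the family the letters started 24 to 58 bases after the stop codon. The sites of the 5 genes, and of 4 family genes that the results below turn on, are shown with the stem-loop in capitals and up to 5 bases on each side, because these letters mark the usual end of such an mRNA.
Hist1h4m: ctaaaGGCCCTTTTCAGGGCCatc
Hist1h4n: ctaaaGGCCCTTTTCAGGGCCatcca
Hist1h2ao: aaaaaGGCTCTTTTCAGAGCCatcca
Hist1h2ap: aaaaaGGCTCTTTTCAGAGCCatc
Hist1h2bp: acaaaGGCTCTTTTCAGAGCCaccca
H1f2: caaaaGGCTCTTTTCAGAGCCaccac
H2aw: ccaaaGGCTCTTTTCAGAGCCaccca
H2ac11: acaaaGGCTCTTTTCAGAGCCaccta
H2bc11: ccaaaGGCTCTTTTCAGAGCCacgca
The core was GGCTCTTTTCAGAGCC in 26 of the 33 genes and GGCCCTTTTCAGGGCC in the other 7, all of which were H4 genes. The models of Hist1h4m and Hist1h2ap stopped 3 bases after the stem-loop, and those of Hist1h4n and Hist1h2ao 31 bases after it. The model of H1f2 ran on for 840 bases and that of H2aw for 1643 bases.

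Promoter windows of RefSeq (GRCm38.p6, from 250 bases before to 50 bases after the start) were matched to 62 of the 69 genes and to 8 of the 9. The 3 name-matched H2A genes of the cluster each faced an H2B gene. The 300-base windows of Hist1h2an and Hist1h2bp shared 261 bases on opposite strands, those of Hist1h2ao and Hist1h2bq 267 bases, and those of Hist1h2ap and Hist1h2br 233 bases. The windows of Hist1h4m and Hist1h4n differed at 1 of 299 bases compared. The 150 bases before the start are shown for the H4 gene with the highest level and for the H2A gene that was called below. Capitals mark exact matches, on either strand, to TATAAA, the letters searched for the TATA box, and to CCAAT. Other spellings, such as the tataag nearer the start of Hist1h4m, were not searched and are not marked.
Hist1h4m (chr13:21811596-21811745, plus strand): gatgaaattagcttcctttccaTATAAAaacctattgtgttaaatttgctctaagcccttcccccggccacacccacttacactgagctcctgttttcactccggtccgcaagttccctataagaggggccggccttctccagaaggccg
Hist1h2an (chr13:21787249-21787398, minus strand): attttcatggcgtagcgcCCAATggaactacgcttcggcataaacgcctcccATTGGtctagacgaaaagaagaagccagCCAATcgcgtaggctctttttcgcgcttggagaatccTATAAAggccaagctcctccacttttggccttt
TATAAA began 128 bases before the start in Hist1h4m and 33 bases before it in Hist1h2an. On either strand, TATAAA was in a window of 56.5% of the 62 family genes, against 13.6% of the 32851 windows in the table. CCAAT was in every H1, H2A, H2B and H3 window, in 25.0% of the 12 H4 windows and in 37.4% of all windows. The octamer ATTTGCAT, a known element of H2B promoters, was in a window of 38.9% of the 18 H2A genes and 43.8% of the 16 H2B genes matched, against 1.7% of all windows. It was in none of the 8 windows of the name-matched genes. A match of letters is a description of the window and was not tested for binding.

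Levels are TPM, a unit of transcript abundance that is scaled to transcript length and to the same total in every library. Of the 9 genes, 5 reached the filter of at least 1 TPM in at least 3 libraries and were tested. The remaining 4 ranged from 0.0697 to 1.05 TPM and were not. The test was limma on log2(TPM + 1), fitted across 15536 genes, and a gene was called at an adjusted p below 0.05 with a log2 fold change of at least 1 in either direction. Fold changes on this scale understate the change of genes at low TPM.

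Both H4 genes fell with stimulation and rose with TRAIL. Hist1h4m was at 13.6, 19.8 and 16.1 TPM in medium, at 3.74, 2.33 and 1.92 TPM in stimulated cells and at 13.7, 10.3 and 8.46 TPM in TRAIL-treated stimulated cells. All 3 stimulated libraries lay below every library of the other groups, and the medium and TRAIL-treated libraries overlapped. Its log2 fold change was -2.27 ± 0.22 (SE, limma adjusted p = 7.5e-06) for stimulated against medium cells and 1.69 ± 0.22 (adjusted p = 6.6e-05) for TRAIL-treated against stimulated cells. Hist1h4n was at 7.37, 7.52 and 7.28 TPM in medium, 1.87, 1.90 and 1.19 TPM in stimulated cells and 9.18, 7.34 and 5.50 TPM with TRAIL. The same pattern was seen, and the log2 fold changes were -1.67 ± 0.18 and 1.64 ± 0.18. The sum of the pair, which depends less on how their shared reads were divided, was 23.9 ± 3.23 TPM (SD, n = 3) in medium, 4.32 ± 1.25 TPM in stimulated cells and 18.1 ± 4.46 TPM with TRAIL. It was thus 5.53-fold lower in stimulated than in medium cells and 4.20-fold higher with TRAIL than without.

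The H2A genes were not alike. Hist1h2an was at 4.02, 1.54 and 2.81 TPM in medium, 0.544, 0.830 and 1.12 TPM in stimulated cells and 2.16, 1.78 and 1.68 TPM with TRAIL. The stimulated libraries lay below all others. It fell with stimulation at the threshold itself (log2 fold change -1.01 ± 0.23, limma adjusted p = 0.0030), and the call was lost when medium replicate 1 was left out (-0.77) and with median-of-ratios scaling (-0.94). With TRAIL its log2 fold change was 0.66 ± 0.23 (adjusted p = 0.028), under the fold threshold. Hist1h2ao and Hist1h2ap were not called in any comparison. Their sum was 13.3, 5.57 and 7.96 TPM in medium, 9.78, 6.98 and 10.3 TPM in stimulated cells and 7.66, 7.42 and 9.04 TPM with TRAIL, and the 3 groups overlapped. The log2 fold changes of Hist1h2ao lay between -0.04 and 0.07 and those of Hist1h2ap between -0.31 and 0.14, with standard errors of 0.24.

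The remaining genes were at or below about 1 TPM. Hist1h2bq and Hist1h2br summed to 0.885, 1.16 and 0.587 TPM in medium, to 0.623, 0.467 and 0.543 TPM in stimulated cells and to 1.45, 1.97 and 1.51 TPM with TRAIL. The TRAIL-treated libraries of this H2B pair were the highest of the 3 groups. Hist1h2bp ranged from 0.0764 to 0.829 TPM and the pseudogene Hist1h2al from 0.0697 to 0.936 TPM over the 9 libraries. When the filter was dropped and all 9 genes were tested, the counts of calls were the same as with it, 3, 2 and 0 in the 3 comparisons.

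**Figure D1:**
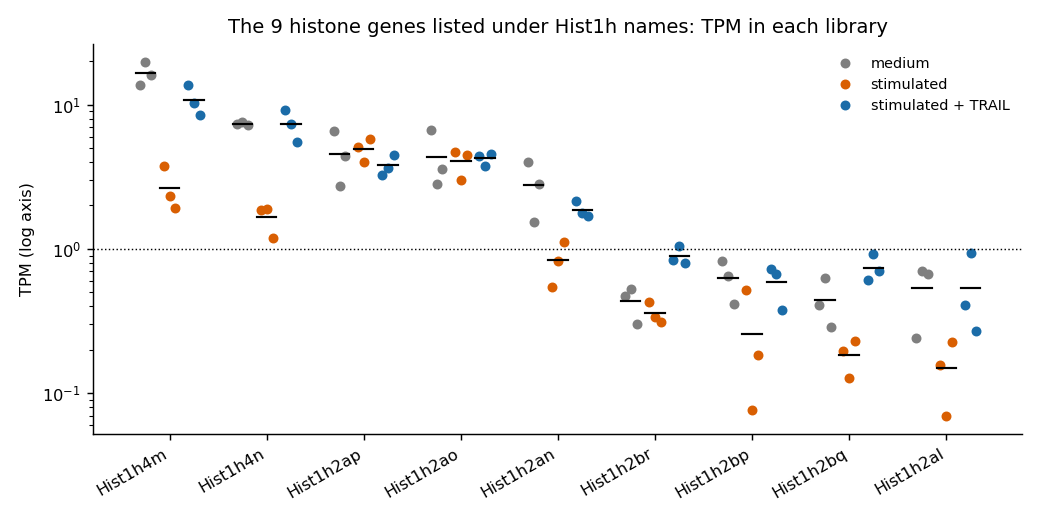
TPM on a log axis of the 9 genes in each of the 9 libraries. Points are libraries, black lines are group means and the dotted line marks 1 TPM. The stimulated libraries of Hist1h4m (1.92 to 3.74 TPM) lie below all medium and TRAIL-treated libraries (8.46 to 19.8 TPM), whereas the groups of Hist1h2ao and Hist1h2ap overlap.

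Counted over the 9, the stimulated libraries did not overlap and lay below medium in 5 genes, beside 29.9% of all 29663 genes above the floor of the table. The TRAIL-treated libraries lay above the stimulated libraries in 6 genes, beside 25.3% of all genes. Of the 5 tested, 3 were called lower in stimulated than in medium cells, where 19.5% of the genes tested were called lower, 12.4% higher and 31.9% in either direction. With TRAIL against without, 2 of the 5 were called higher, where 16.6% of the genes tested were called higher, 14.3% lower and 30.9% in either direction. In TRAIL-treated against medium cells limma called 0 of the 5, and 1 of them, Hist1h4m, had an unadjusted p below 0.05 (log2 fold change -0.58 ± 0.22, adjusted p = 0.071). In that comparison 4.62% of the genes tested were called, 2.49% higher and 2.13% lower. The TRAIL-treated libraries lay above all medium libraries in 1 of the 9, Hist1h2br, beside 8.93% of all genes. With so few genes, these shares are a description of the 9.

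Across the family of 69, 53 genes passed the filter. In stimulated against medium cells 25 of them fell and 1 rose, with a median log2 fold change of -0.97 beside -0.15 over all genes tested. The share called was 49.1%, beside 31.9% of all genes. In TRAIL-treated against stimulated cells 23 rose and limma called 0 lower, with a median of 0.86 beside 0.01 and a share of 43.4% beside 30.9%. At an adjusted p below 0.05, with no fold threshold, 5 genes were lower and 35 higher in this second comparison, and the counts at an unadjusted p below 0.05 were the same. In TRAIL-treated against medium cells 1 rose (H2bc8) and 1 fell (H2ac18), with a median of 0.01 beside -0.18, and this share of 3.8% was near the 4.62% of all genes. H2ac18 reached 1 TPM only in medium libraries and has the same coding sequence as H2ac19, so its own call is uncertain. The sum of this pair overlapped between medium (39.0 to 65.2 TPM) and TRAIL-treated cells (34.1 to 47.2 TPM). The first 2 comparisons share the stimulated libraries, so that a low value there moves both. After quantile normalization the counts were 4 higher and 19 lower for the first comparison and 17 higher and 3 lower for the second. The median over all genes tested depended on the scaling, at 0.04, -0.05 and -0.04 in the 3 comparisons after quantile normalization, and fold changes are to be read relative to it.

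Summed over each class of the 69 genes, the histone genes were lower in the stimulated libraries than in all others. The 69 genes together summed to 359, 328 and 362 TPM in medium, to 116, 93.5 and 107 TPM in stimulated cells and to 361, 371 and 352 TPM in TRAIL-treated cells. The stimulated sum was 3.31-fold below that of medium, and the TRAIL-treated sum was 3.42-fold above the stimulated one. The classes differed in size of change. H1 was 20-fold lower in stimulated than in medium cells (4.71 ± 0.920 against 94.1 ± 9.33 TPM, SD, n = 3), H2B 3.07-fold, H2A 2.67-fold, H4 2.36-fold and H3 2.06-fold lower. With TRAIL against without, H1 was 23.2-fold higher (109 ± 2.74 TPM with TRAIL), H2B 3.80-fold, H2A 2.62-fold, H4 2.09-fold and H3 1.74-fold higher. Single pairs weighed in these sums. H2ac18 and H2ac19 held 55.1 of the 106.9 TPM of H2A in medium, 8.42 of 40.0 TPM in stimulated cells and 40.2 of 104.9 TPM with TRAIL. Without Hist1h4m and Hist1h4n, H4 was 1.63-fold lower with stimulation and 1.60-fold higher with TRAIL, smaller changes than those of H3. No class overlapped between the groups in either comparison. As a share of the family, H1 took 26.9%, 4.44% and 30.3% of the summed level in the 3 groups, in the order given above, while H3 took 12.8%, 20.5% and 10.4%. A sum over chosen genes was given no test.

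TRAIL-treated and medium cells were close in these sums. H2A, H3 and H4 overlapped between these groups, with log2 ratios of -0.03, -0.25 and -0.17, which median-of-ratios scaling moved to 0.17, -0.05 and 0.01. H1 and H2B were higher in every TRAIL-treated library than in every medium library, with log2 ratios of 0.22 and 0.30. Without H1f2 the log2 ratio of H1 was -0.38, the opposite direction.

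**Figure D2:**
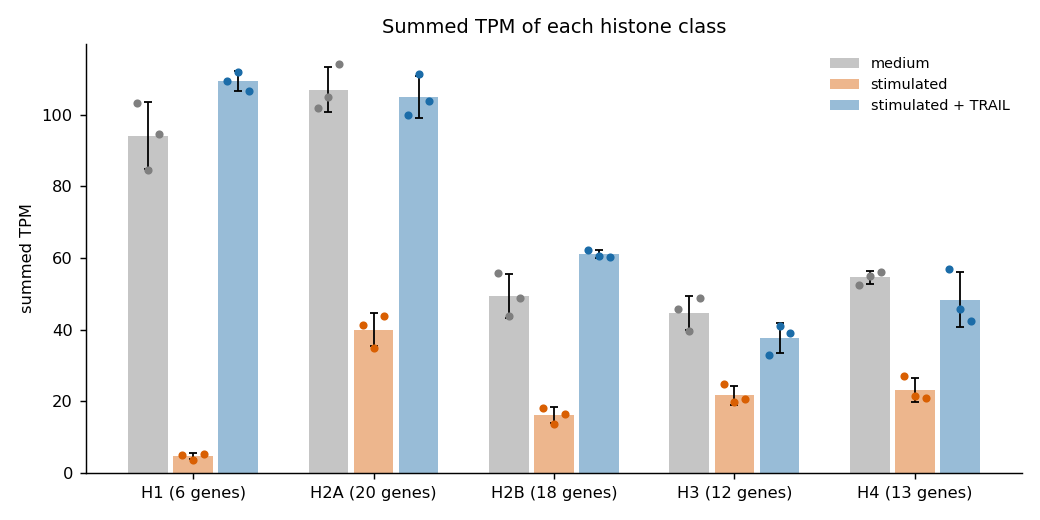
Summed TPM of the genes of each class, over 6 to 20 genes. Bars are group means, error bars are SD over 3 libraries and points are libraries. In stimulated cells all 5 classes lie below the other groups, with H1 at 3.66 to 5.39 TPM against 84.6 to 112 TPM elsewhere.

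H1 was the class with the largest ratios. H1f2 encodes histone H1.2, and it held the highest level of the family. It was at 88.0, 75.2 and 79.8 TPM in medium, 3.29, 3.01 and 4.41 TPM in stimulated cells and 100.2, 101.5 and 96.1 TPM with TRAIL. The stimulated libraries lay far below the others, and each TRAIL-treated library lay above each medium library. Its log2 fold changes were -4.17 ± 0.12 (limma adjusted p = 1.7e-09) and 4.47 ± 0.12 (adjusted p = 1.4e-09), and 0.29 ± 0.12 between TRAIL-treated and medium cells (adjusted p = 0.093). All 4 tested H1 genes fell with stimulation, and 3 of them rose with TRAIL, both shares above the 31.9% and 30.9% of all genes tested. The other three were H1f1 (-1.98 and 2.35), H1f4 (-2.19 and 1.42) and H1f5 (-1.20, and 0.66 under the fold threshold). H1f4 overlaps the H2B gene H2bc6 on the same strand, so that reads there could belong to either. Without H1f2, H1 summed to 13.1, 1.14 and 10.1 TPM in the 3 groups, 11.5-fold lower in stimulated than in medium cells.

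Of the 16 tested H2A genes, 5 fell and 1 rose with stimulation, and 4 rose with TRAIL. These shares of 37.5% and 25.0% called lay near the 31.9% and 30.9% called over all genes tested. H2ac19 and H2ac18 have the same coding sequence over 393 bases. H2ac18 was at 3.20, 26.3 and 24.9 TPM in the medium libraries and below 0.05 TPM in all others, while H2ac19 was at 35.8, 38.8 and 36.2 TPM in medium. Their sum was 55.1 ± 14.1 TPM in medium, 8.42 ± 0.951 TPM in stimulated cells and 40.2 ± 6.57 TPM with TRAIL. The sum was 6.54-fold lower in stimulated than in medium cells and 4.77-fold higher with TRAIL than without, and the value of either gene alone is uncertain. H2aw, from the Hist3 group on chromosome 11, was at 15.9, 12.8 and 15.8 TPM in medium, 5.30, 4.48 and 4.56 TPM in stimulated cells and 23.8, 28.4 and 29.8 TPM with TRAIL. It overlaps Trim17 on the same strand. All TRAIL-treated libraries of H2aw were above all medium libraries (log2 fold change 0.84 ± 0.13, adjusted p = 0.0013, under the fold threshold). The gene that moved the other way was H2ac11, which differs from H2ac7 at 2 of 393 coding bases and is uncertain for that reason, at 1.54, 1.22 and 1.08 TPM in medium, 4.57, 3.37 and 4.43 TPM in stimulated cells and 1.96, 1.59 and 1.34 TPM with TRAIL. It rose with stimulation by 1.16 ± 0.15 on the log2 scale (adjusted p = 6.0e-05) and had a log2 fold change of -0.96 ± 0.15 with TRAIL.

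Of the 11 tested H2B genes, 7 fell with stimulation and 6 rose with TRAIL, shares of 63.6% and 54.5% beside the 31.9% and 30.9% of all genes. H2bc4, for which polyadenylated transcripts are known, was at 10.6, 10.4 and 7.40 TPM in medium, 1.33, 1.24 and 1.82 TPM in stimulated cells and 17.3, 18.5 and 17.7 TPM with TRAIL. Its log2 fold changes were -2.08 ± 0.15 and 2.94 ± 0.15. H2bc8 was at 6.49, 4.14 and 4.56 TPM, then 1.13, 0.386 and 1.17 TPM, then 13.8, 14.3 and 12.3 TPM, in the same order of groups. It was the one family gene called higher in TRAIL-treated than in medium cells (log2 fold change 1.27 ± 0.20, adjusted p = 0.0015), but 3 were called higher there with median-of-ratios scaling, with quantile normalization or without medium replicate 3. H2bc21 was at 10.5, 11.6 and 13.0 TPM in medium, 2.42, 2.54 and 2.82 TPM in stimulated cells and 5.72, 5.24 and 5.58 TPM with TRAIL. Its 3 groups did not overlap, and its log2 fold change between TRAIL-treated and medium cells was -0.96 ± 0.12 (adjusted p = 0.00031), under the fold threshold. H2bc11 was at 4.99, 3.18 and 3.97 TPM in stimulated cells against 2.90, 1.17 and 2.06 TPM in medium, with a log2 fold change of 0.75 ± 0.26 (adjusted p = 0.024) under the fold threshold.

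In class H3, 5 of 11 tested genes fell with stimulation and 5 rose with TRAIL, a share of 45.5% in each beside 31.9% and 30.9% of all genes. H3c11 was at 6.40, 5.16 and 4.62 TPM in medium, 1.14, 1.02 and 1.62 TPM in stimulated cells and 5.88, 10.1 and 7.71 TPM with TRAIL. Its stimulated libraries lay below all others, and its log2 fold changes were -1.50 ± 0.19 and 1.96 ± 0.19. H3c13 differs from H3c15 at 1 of 411 coding bases, so that its own value is uncertain. It was at 7.22, 5.50 and 9.27 TPM in medium, 0.835, 0.917 and 1.09 TPM in stimulated cells and 6.06, 7.14 and 8.76 TPM with TRAIL. H3c1 was at 7.70, 4.33 and 5.37 TPM in medium, 11.1, 6.74 and 9.74 TPM in stimulated cells and 4.41, 4.68 and 5.21 TPM with TRAIL. Its log2 fold changes of 0.59 ± 0.21 (adjusted p = 0.027) and -0.80 ± 0.21 (adjusted p = 0.0060) stayed under the fold threshold, as did those of H3c3 (0.91 ± 0.17 and -0.84 ± 0.17). In class H4, 4 of 11 fell with stimulation and 5 rose with TRAIL, the name-matched Hist1h4m and Hist1h4n among both. These were shares of 36.4% and 45.5%, the first near the share of all genes. H4c9 was at 8.50, 9.18 and 9.99 TPM in medium, 9.08, 5.20 and 6.24 TPM in stimulated cells and 9.71, 6.52 and 5.68 TPM with TRAIL, and was not called. H4c2 had a log2 fold change of 0.74 ± 0.25 (adjusted p = 0.022) with stimulation, under the fold threshold.

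**Figure D3:**
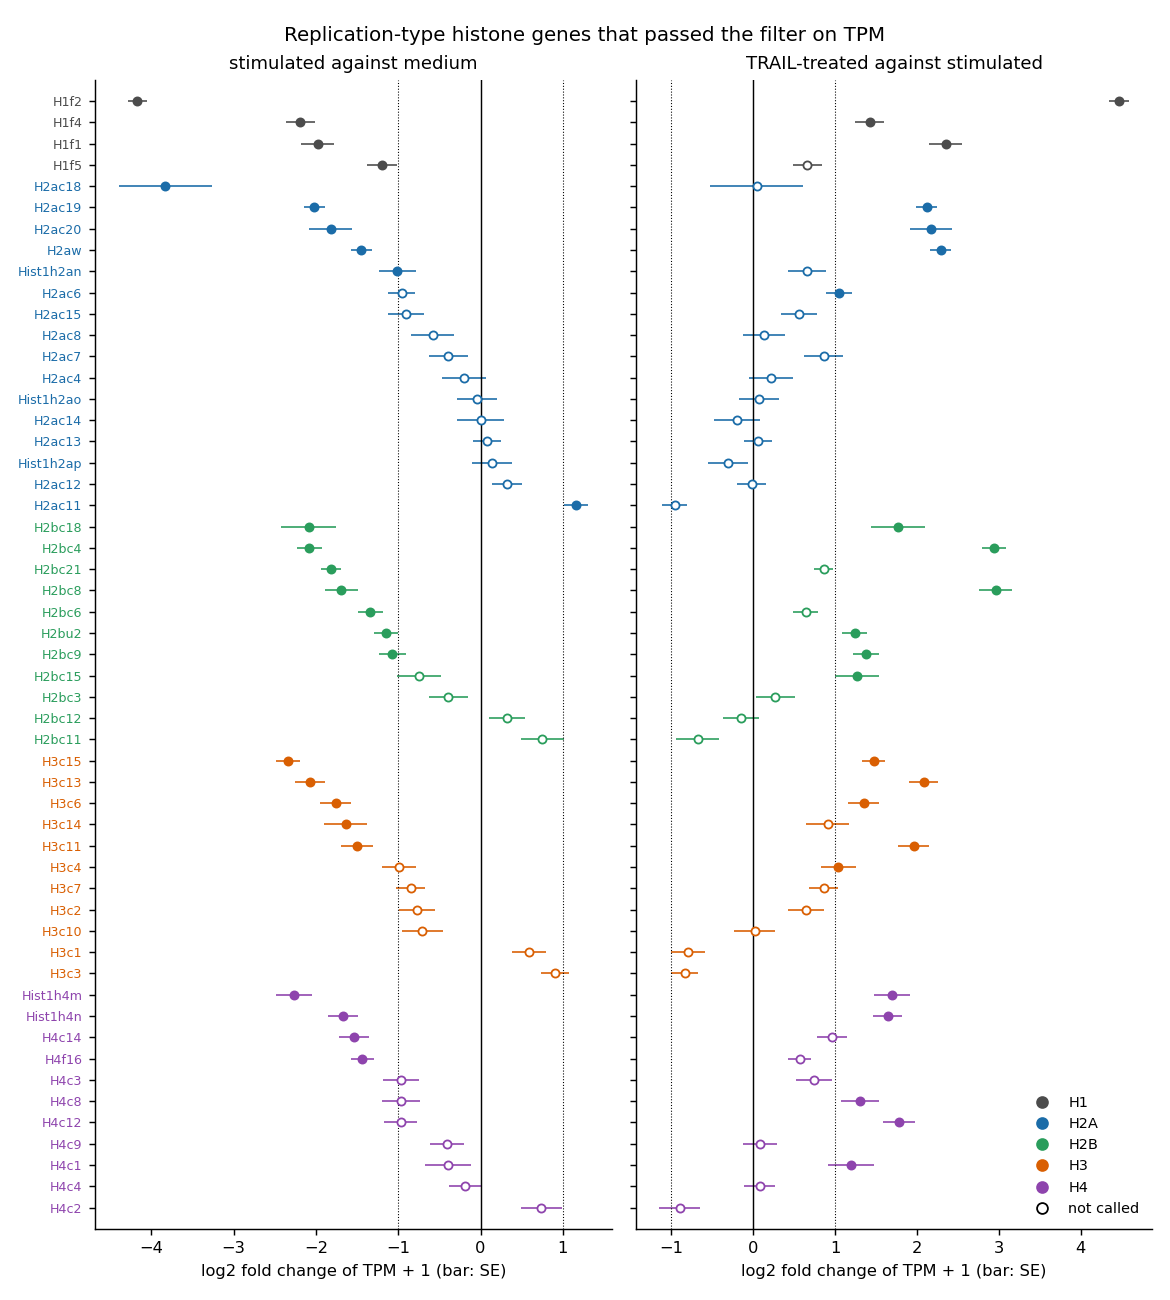
Log2 fold change of TPM + 1, with its SE, of the 53 tested family genes in stimulated against medium cells (left) and TRAIL-treated against stimulated cells (right), coloured by class. Filled points passed the test and the fold threshold (dotted lines). Of the 53, 25 are called lower and 1 higher on the left, and 23 are called higher on the right.

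In the Hist2 cluster on chromosome 3 all 9 tested genes fell with stimulation (median log2 fold change -2.02, from -3.83 to -1.54), and 5 of them rose with TRAIL, a share of 55.6% beside 30.9% of all genes tested. The -3.83 was that of H2ac18, which reached 1 TPM only in medium and has the same coding sequence as H2ac19. Its own value is uncertain, and the next lowest was -2.34 (H3c15). In the Hist1 group on chromosome 13, 13 of 41 tested genes fell and 1 rose (median -0.77), and this share of 34.1% called was near the 31.9% of all genes tested. With TRAIL 16 of the 41 rose, a share of 39.0%. The difference between the clusters was not tested. The tested genes were also split by the end of their transcript model, after their values had been seen, so that the split is a description. In 16 genes the model ran more than 100 bases past the stem-loop, by 151 to 4884 bases. All 15 of these that were tested had log2 fold changes below 0 for stimulation (median -1.34, 10 called lower) and above 0 for TRAIL (median 1.05, 9 called higher). In 17 genes the model stopped within 60 bases of the stem-loop. Of the 13 tested, 9 were below 0 and 4 above 0 for stimulation (median -0.39, 4 called lower and 1 higher). Their median with TRAIL came to 0.22, with 4 called higher. These 4 or 5 of 13 lay near the 31.9% and 30.9% called over all genes. Among them were H2ac11, which rose with stimulation, Hist1h4m and Hist1h4n, which fell, and H2bc11 and H3c1, with log2 fold changes of 0.75 and 0.59 under the fold threshold. In the other 36 genes the letters were not in the model, and the 25 tested had medians of -0.91 and 0.86, with 11 called lower with stimulation and 10 called higher with TRAIL. Their models were both long and short. H2bc21 had 2192 bases after its coding end, and H2bc18 (log2 fold change -2.09 with stimulation) had 0. The split is thus by the place of the letters and not by model length. The summed TPM of genes whose model ran past the stem-loop was 141 ± 12.6 in medium, 18.7 ± 2.67 in stimulated cells and 168 ± 3.14 with TRAIL. Genes whose model stopped at the stem-loop summed to 106 ± 8.87, 43.9 ± 5.63 and 85.7 ± 6.58 TPM, and genes without the letters in the model to 103 ± 13.1, 43.0 ± 3.07 and 108 ± 2.74 TPM, also lowest in stimulated cells. Single genes held much of these sums. Less H1f2, the genes whose model ran past the stem-loop summed to 59.5 ± 6.55, 15.1 ± 2.55 and 68.7 ± 1.64 TPM. Less H2ac18 and H2ac19, those whose model stopped at the stem-loop summed to 50.7 ± 5.22, 35.5 ± 6.53 and 45.5 ± 4.48 TPM.

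**Figure D4:**
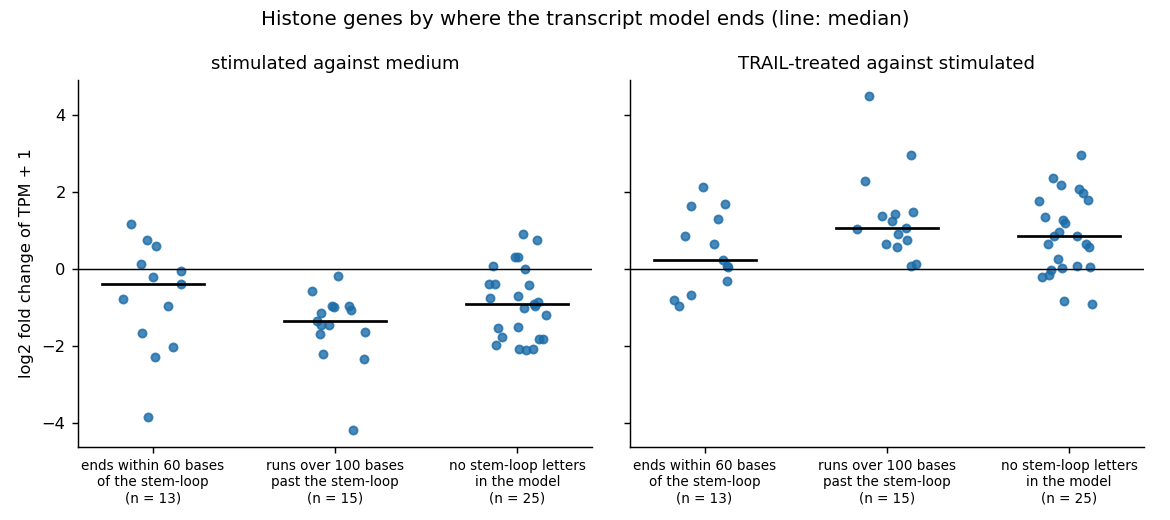
Log2 fold change of TPM + 1 of the tested family genes, grouped by where the GENCODE M21 transcript model ends relative to the stem-loop letters. Points are genes and lines are medians. All 15 genes with long models lie below 0 on the left and above 0 on the right, and the 13 genes with short models lie on both sides of 0.

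Of 28 S phase genes, most of them genes of DNA replication, 21 rose with stimulation and 24 fell with TRAIL, with median log2 fold changes of 1.55 and -1.76. These were shares of 75.0% and 85.7%, beside 31.9% and 30.9% of all genes tested. Their summed TPM was 1028 to 1107 in medium, 2806 to 3022 in stimulated cells and 1030 to 1083 with TRAIL, so that the stimulated libraries were the highest for these genes and the lowest for the histone classes. Uhrf1, which recruits the maintenance DNA methyltransferase, rose by 2.51 ± 0.17 and fell by 3.00 ± 0.17 on the log2 scale. Ung, a uracil-DNA glycosylase, rose by 2.81 ± 0.12 and fell by 2.92 ± 0.12, and Mcm3, a subunit of the replicative helicase, rose by 2.35 ± 0.12 and fell by 2.65 ± 0.12. Mcm5, of the same helicase, had log2 fold changes of 2.01 and -2.32. Pcna, the sliding clamp, was not called, at 0.87 and -0.33.

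Of 22 genes listed for the synthesis and processing of histone mRNA, 4 rose and 1 fell with stimulation, and 6 fell with TRAIL. These shares of 22.7% and 27.3% called were below the 31.9% and 30.9% of all genes tested. One of the 6, Mbd3 (-1.25 ± 0.11), is a chromatin protein and not a factor of histone mRNA. Slbp, whose protein binds the stem-loop, was at 117.5, 88.0 and 112.4 TPM in medium, 173.9, 153.7 and 159.8 TPM in stimulated cells and 125.3, 156.1 and 168.9 TPM with TRAIL. It was higher in all stimulated than in all medium libraries (log2 fold change 0.62 ± 0.14, adjusted p = 0.0027, under the fold threshold) and overlapped between TRAIL-treated and stimulated cells (-0.12 ± 0.14). Npat, the coactivator of histone gene transcription, had log2 fold changes of 0.15 ± 0.12 and -0.20 ± 0.12, and Casp8ap2, which is needed for histone mRNA processing, 0.28 ± 0.16 and -0.28 ± 0.16. The largest called values with TRAIL were those of the Sm proteins Snrpe (-1.38 ± 0.33) and Snrpd3 (-1.26 ± 0.12) and of the cap-binding subunit Ncbp2 (-1.30 ± 0.08), which serve RNA processing in general.

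Of 22 histone chaperones and histone carriers, 10 rose with stimulation and 11 fell with TRAIL, both shares above the 31.9% and 30.9% of all genes tested. Chaf1a, the large subunit of the factor that loads H3 and H4 behind the replication fork, went from 6.15, 6.98 and 6.79 TPM in medium to 27.4, 36.6 and 36.7 TPM in stimulated cells and was at 5.41, 6.11 and 5.27 TPM with TRAIL. The stimulated libraries were the highest, opposite to those of Hist1h4m and H3c13. Hat1, which acetylates new H4, had log2 fold changes of 1.26 ± 0.14 and -1.80 ± 0.14, and Ssrp1, a subunit of the chaperone FACT, of 1.18 ± 0.13 and -1.56 ± 0.13.

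Replacement histones are also made outside S phase, from polyadenylated mRNA. Of 9 tested, 1 fell with stimulation and 1 rose with TRAIL, and both were Cenpa, the H3 variant of centromeres. The share of 11.1% called in each comparison was below the 31.9% and 30.9% of all genes. Cenpa was at 40.9, 41.4 and 41.9 TPM in medium, 17.6, 15.4 and 16.1 TPM in stimulated cells and 104.2, 99.0 and 87.1 TPM with TRAIL. H3f3a, encoding H3.3, had log2 fold changes of -0.98 ± 0.12 and 0.76 ± 0.12, and H2az1, encoding H2A.Z, of 0.75 ± 0.18 and -0.40 ± 0.18, all under the fold threshold. The 11 replacement histones summed to 1993 to 2342 TPM in medium, 2134 to 2320 TPM in stimulated cells and 2450 to 2694 TPM with TRAIL.

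**Figure D5:**
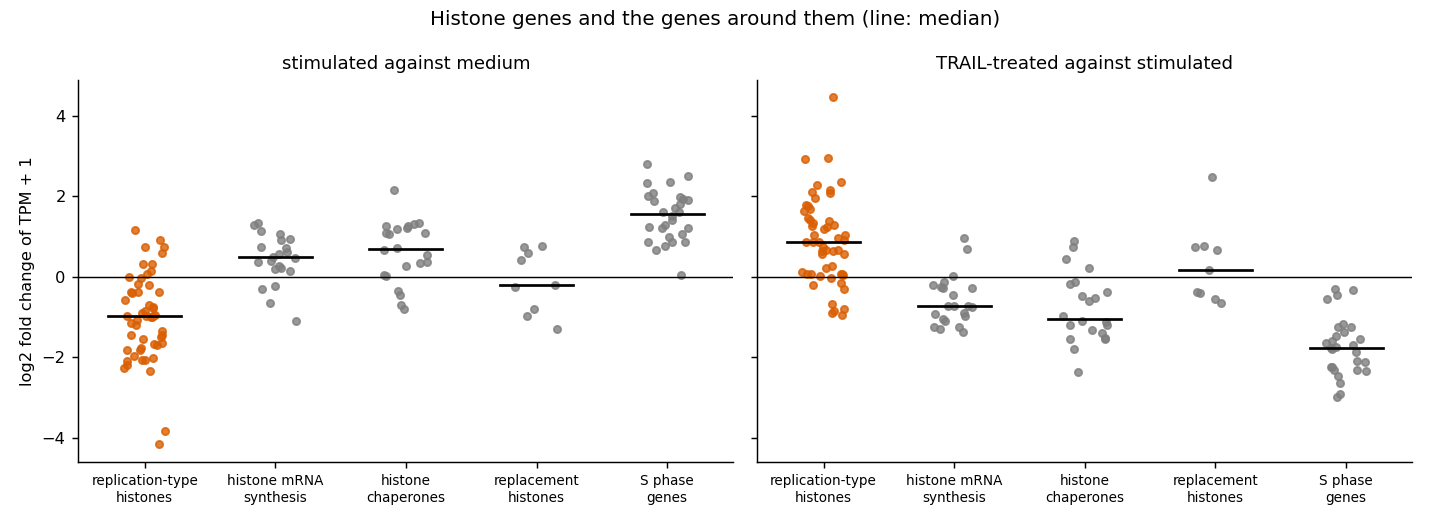
Log2 fold change of TPM + 1 of tested genes in 5 groups, for stimulated against medium cells (left) and TRAIL-treated against stimulated cells (right). Points are genes and lines are medians. The histone genes have medians of -0.97 and 0.86, and the S phase genes 1.55 and -1.76.

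All 8 B cell markers, all 10 myeloid markers and all 8 erythroid markers were called lower in stimulated than in medium cells, where 19.5% of all genes tested were called lower. With TRAIL against without, 8, 10 and 7 of them were called higher, beside 16.6% of all genes. In TRAIL-treated against medium cells 5 of the 8 B cell markers, all 8 erythroid markers, both NK cell markers and both CD8 markers were called lower, beside 2.13% of all genes, and none of the 10 myeloid markers was called. Both NK cell markers were called lower with stimulation and higher with TRAIL. Of 4 plasma cell markers, 2 fell and 1 rose with stimulation and 2 rose and 1 fell with TRAIL. The one with the other direction was Xbp1, a transcription factor of secretory cells, with log2 fold changes of 1.93 ± 0.08 and -1.44 ± 0.08. Neither of the 2 CD8 markers was called with stimulation, and Cd8a, the alpha chain of CD8, fell by 1.62 ± 0.12 on the log2 scale with TRAIL. B cell markers summed to 5802 to 6414 TPM in medium, 686 to 746 TPM in stimulated cells and 2955 to 3416 TPM with TRAIL, and myeloid markers to 1431 to 1550, 45.6 to 53.5 and 1152 to 1299 TPM. Erythroid markers summed to 2149 to 2600, 25.6 to 40.8 and 622 to 672 TPM, and the 2 NK cell markers to 58.4 to 74.2, 5.04 to 6.85 and 14.7 to 17.6 TPM. Plasma cell markers summed to 450 to 571, 345 to 378 and 446 to 504 TPM. The 6 T cell markers, which define the labelled cell type, summed to 2496 to 2673, 1951 to 1996 and 2494 to 2745 TPM, with 1 of them, Cd3g, called lower with stimulation (log2 fold change -1.04 ± 0.09), and the 2 CD8 markers to 110 to 118, 94.2 to 105 and 46.9 to 49.4 TPM. No marker list was at or near 0 in all libraries. The part of other cells in the histone values was not tested. In bulk RNA, fewer cells of a type and less RNA per cell cannot be told apart.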

How the data were processed

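The deposited table gave TPM per gene, made by the authors from paired-end NovaSeq reads of libraries built from total RNA with the SureSelect XT HS2 mRNA kit. The submitters' processing notes name Trimmomatic 0.36, HISAT2 2.1.0, SAMtools 1.2, StringTie 2.1.2 and DESeq2, and list the build GRCh38. The study's methods give GRCm38, and 99.3% of the loci of identifiers matched were the same as in GENCODE M21. TPM keeps no depth, so the precision due to sequencing depth is unknown.

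All 9 libraries entered one limma 3.58.1 fit (R 4.3.3; lmFit, eBayes with trend) on log2(TPM + 1) of the genes that reached 1 TPM in 3 or more libraries, with Benjamini-Hochberg adjustment over 15536 genes. On 3 simulated data sets of that size, 180 to 189 of 200 genes changed 4-fold on the scale of TPM + 1 were recovered, with at most 3 false calls. The simulated noise was normal and far fewer genes changed than were called in these data. The recovery therefore does not measure the power or false calls of the histone tests. Floor values of 0.0001 TPM or less were kept as given. Named were the tested name-matched genes and family genes with at least 10 TPM in a library. From each list other than the markers, up to 3 called genes with the largest fold change with TRAIL were named, plus Slbp, Npat, Casp8ap2, H2az1, H3f3a, Pcna and Mcm5. Marker lists were given by counts and sums, without that rule. Other named genes, markers included, were chosen after their values were seen. The members and lists were chosen with earlier results of these data known, and the family of 69 was set after the table was seen. Sequences came from GENCODE M21 and RefSeq. Alternatives were pseudocount, filter, scaling, trend, samples in the fit, replicate block, fold threshold and left-out libraries.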

Additional observations from a re-analysis of the deposited data

How the results depend on the processing

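Among the 9 name-matched genes, 3 were called in stimulated against medium cells and 2 in TRAIL-treated against stimulated cells, and a pseudocount of 5 left 1 in each. Leaving out libraries gave 2 to 3 and 2 to 2. Over the 69 family genes, whose count was added after the table was seen, a pseudocount of 5 gave 9, 10 and 1 calls in the 3 comparisons, in place of 26, 23 and 2. A minimum of 5 TPM gave 14, 13 and 1 among fewer genes tested, and no fold threshold gave 40, 40 and 12. A pseudocount of 0.1 gave 38, 37 and 7, with 3 of the 37 called lower. In TRAIL-treated against medium cells, median-of-ratios scaling and quantile normalization each gave 4, and leaving out 1 library gave 2 to 4, with 4 without medium replicate 1 or medium replicate 3. The cause was not tested.

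Of the class sums, leaving out H1f2, an alternative added after the data were seen, gave log2 ratios for H1 of -3.53, 3.15 and -0.38. Median-of-ratios scaling moved TRAIL-treated against medium to 0.41 for H1, 0.17 for H2A, 0.49 for H2B, -0.05 for H3 and 0.01 for H4.

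For 14 named genes, 747 of 789 alternative values kept direction and call, 15 gained a call, 11 lost it and 16 changed sign. None of the latter had been called. Hist1h2ao changed sign in stimulated against medium cells with median-of-ratios scaling (0.04), quantile normalization (0.32) and with libraries left out in turn (from -0.24 to 0.26). It also did so in TRAIL-treated against stimulated cells (-0.13 with quantile normalization, from -0.10 to 0.16 with libraries left out) and in TRAIL-treated against medium cells (from -0.18 to 0.32 with libraries left out). With libraries left out, Hist1h2ap ranged from -0.12 to 0.40 in stimulated against medium cells and from -0.43 to 0.09 in TRAIL-treated against medium cells. Between TRAIL-treated and medium cells, Hist1h4n gave 0.13 with median-of-ratios scaling, 0.16 with quantile normalization and from -0.19 to 0.14 with libraries left out, and H2ac19 ranged from -0.02 to 0.21 with libraries left out. H2ac18 gave -0.26 with quantile normalization in TRAIL-treated against stimulated cells. Hist1h2an lost its call in stimulated against medium cells with a pseudocount of 5 (-0.41), both scalings (-0.94 and -0.57) and without medium replicate 1 or 3 or stimulated replicate 1 (-0.97 to -0.77).

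The replicate numbers were not treated as pairs: deviations of same-numbered libraries correlated at -0.31 to 0.29, above 0.1 in 3 of 9 pairs. With the replicate block, 3, 2 and 0 of the name-matched genes and 26, 23 and 2 of the family were called. Without the filter on low TPM all 9 name-matched genes were tested, and the counts of calls were the same 3, 2 and 0. Depth is unknown.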
